A study of Mus musculus with 4 samples.

Results

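The genes described are 10 carboxylesterases of mouse liver, Ces1c, Ces1d, Ces1e, Ces1f, Ces1g, Ces2a, Ces2c, Ces2e, Ces3a and Ces3b. They were chosen by name from the Ces1, Ces2 and Ces3 families, out of 21153 genes that the array's probes name. Probes were assigned by the RefSeq accession they carry, which gave 13 probes for the 10 genes, 3 of them for Ces2c, 2 for Ces2e and 1 for each other gene. Total RNA came from whole liver of 2 wild type mice and of 2 mice lacking the Cyp3a cluster (Cyp3a-/-), with each liver on its own 1-colour array. The labels name no driver, tissue limit or treatment for the knockout, and sex, age, strain and diet are not given in the sources used here. Each probe's signal is given as log2 of the processed intensity relative to the array's 75th percentile, and each difference is a log2 fold change, Cyp3a-/- minus wild type.

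Carboxylesterases are serine hydrolases that split esters, amides and thioesters, among them many drugs and prodrugs as well as triglycerides and cholesteryl esters. Most are held in the lumen of the endoplasmic reticulum of hepatocytes, the compartment on whose membrane the Cyp3a enzymes also sit. In the mouse the families expanded by local duplication on chromosome 8, where the Ces1 genes stand in one row and the Ces2 and Ces3 genes in another. Several of them are known targets of the xenobiotic receptors CAR and PXR. The comparison asks how far their transcripts differed in livers that lack the Cyp3a cluster.

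Of the 10 genes, 1 rose in Cyp3a-/- liver, Ces2a, and 0 fell (limma, adjusted p below 0.05 over 17406 genes and other features). Over all features 0.276% were called in either direction, 0.178% higher and 0.0977% lower. Ces2a stood 3.39-fold above wild type on its 1 probe, and whether that probe also binds related Ces2 transcripts was not tested. Its call was lost when livers were paired by replicate number (limma adjusted p = 0.062) or with the pairing crossed (0.069). The brightest of the 3 Ces2c probes was 2.62-fold higher without passing the threshold, while the other probes of Ces2c lay near 0. The 5 Ces1 genes lay between 0.01 and 0.48 and none passed. Ces3a and Ces3b stood at 0.09 and -0.20. The median of the 10 genes was 0.33, where the median of all features tested was 0.01.

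Before the single genes, the arrays and the labels were checked. The share of non-control probes well above background ran from 54.4% to 56.4% over the arrays, 0 spots were saturated, and each of the 13 carboxylesterase probes was well above background on all 4 arrays, so all 10 genes passed the filter on dim probes. The Cyp3a transcripts followed the labels: 7 of 7 measured Cyp3a genes fell. Cyp3a11 read 7.94 and 8.09 in the wild type livers against -6.98 and -6.93 in the Cyp3a-/- livers, where its probe was not well above background. Cyp3a13 read 3.23 and 3.43 against -2.84 and -2.72, and its probe stayed well above background on both Cyp3a-/- arrays. All 10 hepatocyte markers were well above background on all 4 arrays, and their summed signal, in units of the 75th percentile, was 3702 to 4119 in wild type and 3528 to 4084 in Cyp3a-/- liver. Intestine and fat also make carboxylesterases. Of 7 enterocyte markers 3 were well above background on all 4 arrays, while Sis, Lct and Alpi were so on none. Those 3 were Fabp2, Apoa4 and Cdhr5, of which Cdhr5 alone had an unadjusted p under 0.05, with a log2 fold change of 0.53 ± 0.17 (SE, adjusted p = 0.418). Of 6 adipocyte markers Fabp4 and Cfd were well above background on all 4 arrays, and Adipoq, Plin1, Lep and Retn on none. The summed signal of the 7 enterocyte markers was 41.1 to 45.2 in wild type and 43.3 to 46.3 in Cyp3a-/- liver, and that of the 6 adipocyte markers reached at most 1.72 and 1.99. Macrophage markers, all 7 well above background, summed to 57.1 and 58.7 in wild type and 46.4 and 51.2 in Cyp3a-/- liver, and pancreatic acinar markers to 0.855 and 0.903 against 1.22 and 0.912, with Cpa1, Cpb1 and Pnlip not well above background. Their part in the results was not tested. Both wild type arrays lay on slide 1 and the Cyp3a-/- arrays on slides 2 and 3, so slide and genotype cannot be told apart. In whole liver, fewer cells of a type and less RNA per cell cannot be told apart either.

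**Figure D1:**
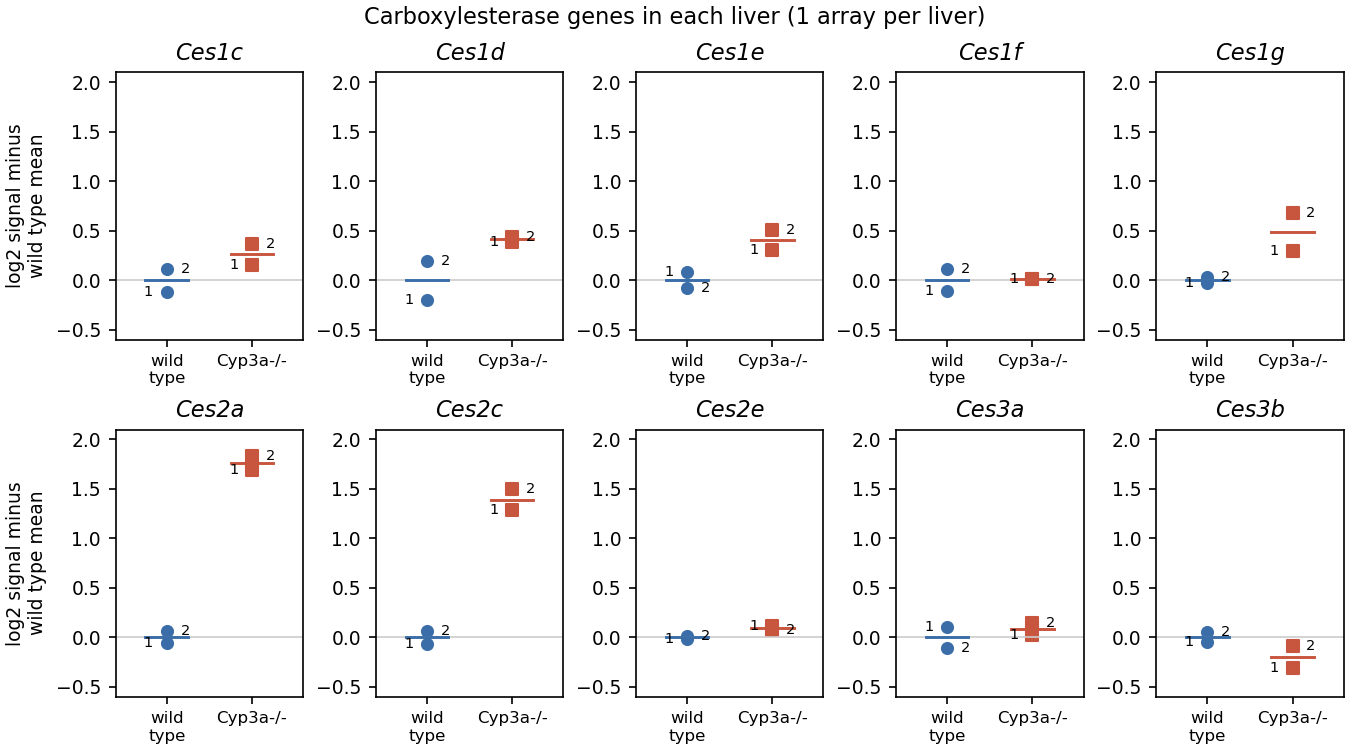
Signal of the 10 carboxylesterase genes in each liver, as log2 signal minus the wild type mean of that gene (vertical axis), with circles for wild type, squares for Cyp3a-/-, replicate numbers beside the points and bars for the genotype means (n = 2 each). Ces2a and the brightest Ces2c probe stand apart at 1.76 and 1.39 above wild type, and the other genes lie between -0.20 and 0.48.

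The Ces2 genes, whose enzymes favour esters with a small acyl group and include hydrolases of drugs and of glycerides, held the widest differences. Ces2a, a hydrolase of the endoplasmic reticulum of liver and intestine, read 7.47 and 7.59 in wild type liver and 9.22 and 9.36 in Cyp3a-/- liver. Both Cyp3a-/- livers lay far above both wild type livers. The means were 7.53 ± 0.09 and 9.29 ± 0.10 (SD, n = 2 per genotype), and the log2 fold change was 1.76 ± 0.18 (SE, 95% interval 1.31 to 2.21, limma adjusted p = 0.040). In processed intensity its probe read 55253 and 67923 units in wild type and 187466 and 202456 in Cyp3a-/- liver. By limma p Ces2a ranked 45 of 17406 features and by rise it ranked 79. Set against the mean of the 9 other genes, Ces2a stood at 1.55 and 1.58 in wild type and at 3.003 and 2.989 in Cyp3a-/- liver. The difference between genotypes was 1.43. For 2 against 2 arrays without overlap, an exact permutation test (2-sided) always gives its smallest p, here 0.333, and cannot decide.

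The size of the Ces2a rise ran from 1.61 to 1.83 over the 14 other settings tried, and the call was lost in 8 of them. The filters, the blocks and the averaging of probes left it at 1.76 by construction, since Ces2a has 1 probe. The authors' deposited values come from the same scanner files and gave 1.76 as well. The adjusted p was 0.062 with the replicate block, 0.069 with the pairing crossed, 0.074 with quantile normalization, 0.256 without a filter on dim probes, 0.072 with a filter requiring all 4 arrays, 0.094 with slide as a random block, 0.324 without wild type 1 and 0.438 without wild type 2.

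Sequences upstream of Ces2a, Ces2c and Ces2e, copies of one ancestral gene, are shown next. Whether they bear on the differences in signal was not tested. The 250 bases before the annotated start are from RefSeq (GRCm38.p6), which matched 7 of the 10 genes (Ces1c, Ces1e, Ces1g, Ces2a, Ces2c, Ces2e and Ces3b). All 3 lie on the + strand, at chr8:104733753-104734002 for Ces2a, chr8:104846818-104847067 for Ces2c and chr8:104926010-104926259 for Ces2e. Capitals mark CCAAT, or ATTGG where it lies on the opposite strand, and the nuclear receptor core element AGGTCA.
Ces2a: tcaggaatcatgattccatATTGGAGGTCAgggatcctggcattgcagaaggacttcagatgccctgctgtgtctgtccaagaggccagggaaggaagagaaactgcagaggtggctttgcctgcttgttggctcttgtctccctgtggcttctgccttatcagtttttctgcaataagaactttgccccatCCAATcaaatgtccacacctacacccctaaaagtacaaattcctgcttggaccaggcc
Ces2c: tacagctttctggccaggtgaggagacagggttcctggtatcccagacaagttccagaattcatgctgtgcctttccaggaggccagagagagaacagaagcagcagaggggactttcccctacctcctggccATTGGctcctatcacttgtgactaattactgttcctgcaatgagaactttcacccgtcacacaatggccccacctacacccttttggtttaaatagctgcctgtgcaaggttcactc
Ces2e: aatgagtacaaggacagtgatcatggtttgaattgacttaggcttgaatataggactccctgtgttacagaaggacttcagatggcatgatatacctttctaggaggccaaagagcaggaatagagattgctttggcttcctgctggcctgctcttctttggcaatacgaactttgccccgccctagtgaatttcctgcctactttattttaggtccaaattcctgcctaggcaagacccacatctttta
In global alignment the Ces2a and Ces2c stretches were 67.0% identical over 261 columns, Ces2a and Ces2e 57.3% over 286, and Ces2c and Ces2e 54.4% over 287. Ces2a held 1 AGGTCA, starting at position -226 from the annotated start and directly beside an ATTGG at -231, and a second CCAAT at -58. Ces2c held 1 ATTGG at -117, and Ces2e held none of these elements.

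Elements were searched on both strands in the 250 bases of the 7 matched genes and, for comparison, of 27018 RefSeq genes. AGGTCA stood in 1 of the 7 (Ces2a) and in 13.8% of all, AGTTCA in 0 of 7 and 11.9%, CCAAT in 5 of 7 and 34.5%, and TATAAA in 2 of 7 (Ces1g and Ces3b) and 13% of all. The paired forms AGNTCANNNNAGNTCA, AGNTCANNNAGNTCA, AGNTCANAGNTCA and TGANCTNNNNNNAGNTCA, which contain the core elements, stood in none of the 7 and in 0.111%, 0.0555%, 0.167% and 0.037% of all. These matches describe letters in a short window and are not evidence of binding.

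Ces2c, a glyceride and drug hydrolase, gave values that depended on the probe. Its brightest probe (A_55_P2005213) read 6.58 and 6.71 in wild type and 7.93 and 8.14 in Cyp3a-/- liver, again with no overlap. The log2 fold change was 1.39 ± 0.19 (SE, 95% interval 0.93 to 1.85), and the adjusted p of 0.103 missed the threshold. It passed with normexp background correction (adjusted p = 0.032), with median scaling (6.1e-04, with infinite prior degrees of freedom) and without Cyp3a-/- 2 (0.044).

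The other Ces2c probes did not share this difference. The probe A_55_P2124712 read 4.38 and 4.82 in wild type and 4.52 and 4.47 in Cyp3a-/- liver, so that the Cyp3a-/- values lay within the wild type range. The probe A_52_P318361 read 3.26 and 3.69 in wild type and 3.50 and 3.31 in Cyp3a-/- liver and overlapped likewise. Their log2 fold changes were -0.11 ± 0.22 and -0.07 ± 0.22 (SE), with 95% intervals of -0.64 to 0.42 and -0.62 to 0.47. Neither interval reaches the 0.93 at which that of the brightest probe begins. With the 3 probes averaged, the gene stood at 0.40 (adjusted p = 0.571).

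The gap between the brightest Ces2c probe and the mean of the other 2 was 2.76 and 2.45 in wild type and 3.92 and 4.25 in Cyp3a-/- liver. The gap widened by 1.48 between genotypes without overlap. An exact permutation test (2-sided) then always gives its smallest p, here 0.333, and cannot decide. Over the 4 arrays, with each probe centred on its mean, the brightest Ces2c probe lay 0.38 log2 units from Ces2a by Euclidean distance and 1.53 from the probe A_55_P2124712. The 2 dimmer Ces2c probes lay 0.10 from each other, and 0.10 and 0.16 from the probe of Ces2b, a neighbouring gene. Genes outside the family lay nearer still, such as Robo1 at 0.09 from Ces2a and Anp32a at 0.15 from the brightest Ces2c probe. The dimmer Ces2e probe lay 0.05 from that of Ces2b, so small distances are not particular to the Ces2c probes. Ces2 genes are close copies, and which transcripts each probe binds was not tested, so the values cannot be assigned to Ces2c alone with certainty. The same limit holds for Ces2a, whose values rest on 1 probe.

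**Figure D2:**
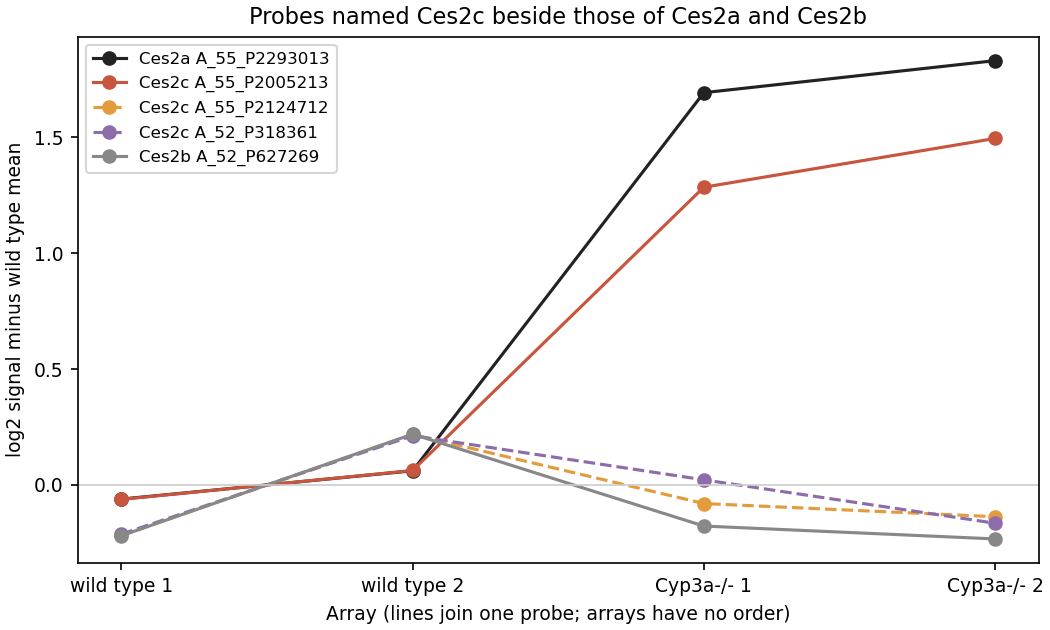
Log2 signal minus the wild type mean (vertical axis) on each of the 4 arrays for the 3 probes named Ces2c and the probes of Ces2a and Ces2b, with a line per probe. The brightest Ces2c probe runs with Ces2a, at 1.39 and 1.76 above wild type, and the other Ces2c probes run with Ces2b near 0, all 3 highest in wild type 2.

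Ces2e, known from small intestine and liver, showed little difference. Its brighter probe read 5.47 and 5.50 in wild type and 5.59 and 5.56 in Cyp3a-/- liver. Its arrays did not overlap, yet the log2 fold change was 0.09 ± 0.17 (SE, 95% interval -0.33 to 0.52, limma adjusted p = 0.875). The dimmer probe read -1.93 and -1.54 in wild type and -1.94 and -1.996 in Cyp3a-/- liver, with a log2 fold change of -0.23 ± 0.21 (SE, adjusted p over probes = 0.736). The sign for Ces2e thus differed between its probes, and the mean of both was -0.07. Like the dimmer Ces2c probes, the dimmer Ces2e probe was highest in wild type 2, as were the single probes of Ces1f and Ces3b.

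The Ces1 family holds the secreted and lipid-handling esterases, and none of the 5 Ces1 genes described passed the threshold. Ces1c, the esterase secreted into mouse plasma, read 6.95 and 7.18 in wild type and 7.22 and 7.43 in Cyp3a-/- liver, a log2 fold change of 0.26 ± 0.19 (SE). Ces1d, the triacylglycerol hydrolase that mobilises stored fat for very low density lipoprotein (VLDL), read 6.18 and 6.58 against 6.77 and 6.82, or 0.41 ± 0.21. Both Cyp3a-/- livers lay above both wild type livers for these genes, by a margin smaller than the gap between the wild type livers.

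Ces1e, known as egasyn, which anchors beta-glucuronidase in the endoplasmic reticulum, read 4.82 and 4.66 in wild type and 5.04 and 5.24 in Cyp3a-/- liver, a log2 fold change of 0.40 ± 0.19 (SE). Ces1g, which limits triglyceride build-up in mouse liver, read 2.63 and 2.69 against 2.95 and 3.34, or 0.48 ± 0.21. Ces1f, a close relative of Ces1d, read 6.04 and 6.26 against 6.16 and 6.16. Its genotypes overlapped, and the log2 fold change was 0.01 ± 0.18. The adjusted p of the 5 genes ran from 0.531 for Ces1g to 0.992 for Ces1f, and 0 of the 5 had an unadjusted p under 0.05. The 95% intervals reached from -0.45 for Ces1f up to 1.00 for Ces1g, below the 1.31 at which the interval of Ces2a begins.

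Neither of the Ces3 genes, esterases of the liver whose substrates are less well known, passed the threshold. Ces3a read 8.55 and 8.33 in wild type and 8.47 and 8.59 in Cyp3a-/- liver, with overlap and a log2 fold change of 0.09 ± 0.19 (SE, adjusted p = 0.899). Ces3b read 6.10 and 6.20 against 5.84 and 6.06. It was the only one of the 10 genes with both Cyp3a-/- livers below both wild type livers, at -0.20 ± 0.19 (SE, adjusted p = 0.744).

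**Figure D3:**
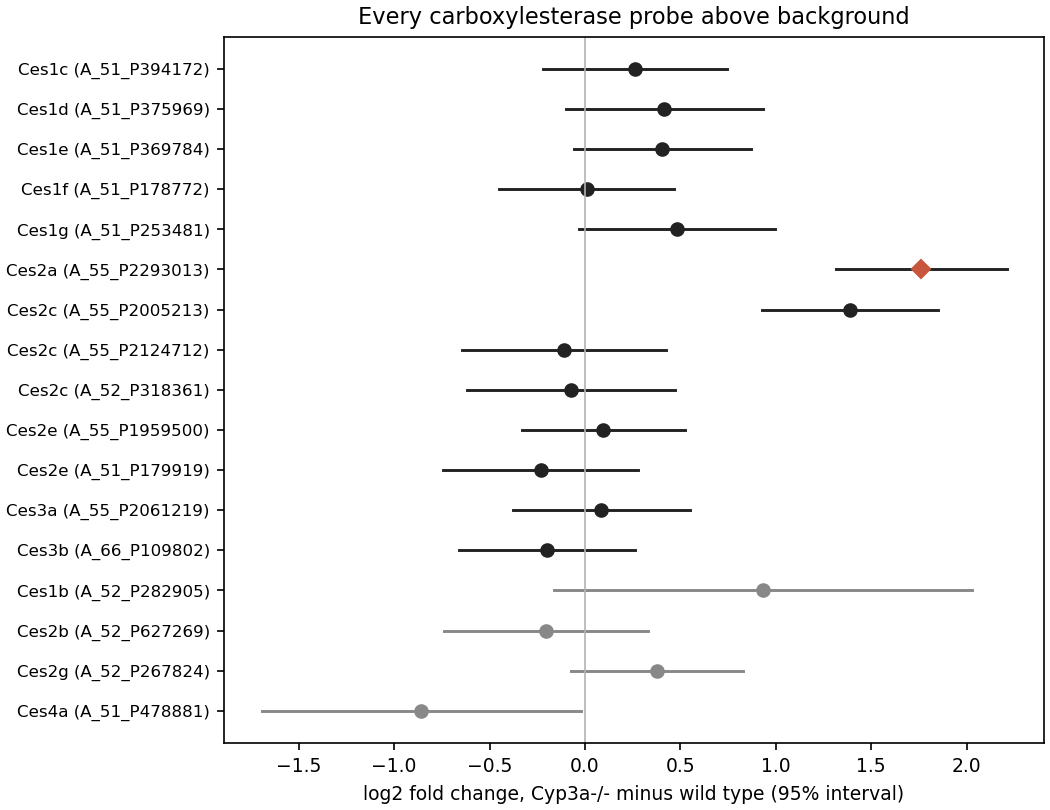
Log2 fold change (Cyp3a-/- minus wild type, horizontal axis) with its 95% interval for each carboxylesterase probe kept after the filter on dim probes, in black for the 10 genes described and in grey for other carboxylesterases. The diamond marks Ces2a, called at an adjusted p over probes of 0.035, and the 3 probes named Ces2c fall at 1.39, -0.11 and -0.07.

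Counted over the family, 9 of the 10 genes lay above 0, as did 51.4% of all features. In 7 genes both Cyp3a-/- livers lay above both wild type livers (background 22.5% of features), in 1 below (background 20.2%), so that the genotypes did not overlap in 8 of 10 (background 42.8%). Of the 13 probes 1 was called, that of Ces2a (background 0.270% in either direction, 0.167% higher). At an unadjusted p under 0.05, 2 of 10 differed, Ces2a and Ces2c, against 1745 of 17406 features (10%). The genes share arrays, a chromosome and in part sequence, so these counts are not independent of each other. Outside Ces2a and Ces2c some directions moved with scaling. Quantile normalization left 6 of 10 above 0, with a median of 0.14, and turned only Ces1f, Ces2e and Ces3a to below 0. Wild type 2 lay above wild type 1 for 8 of the 10 genes (46.9% of all features) and Cyp3a-/- 2 above Cyp3a-/- 1 for 9 (55.1%). Without wild type 1 the median of the 10 genes was 0.21, and without Cyp3a-/- 2 it was 0.22.

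The remaining carboxylesterases were mostly faint. Of 10 listed, 8 had a probe and 4 passed the filter, of which 0 were called by limma (1 at an unadjusted p under 0.05). Ces1b stood at 0.93 ± 0.45 (SE, adjusted p = 0.577), reading 2.33 and 2.58 in wild type and 4.07 and 2.70 in Cyp3a-/- liver. Cyp3a-/- 1 alone was high, and the value was 0.25 without it and 1.61 without Cyp3a-/- 2, where it passed the threshold (adjusted p = 0.030).

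Ces4a read -0.32 and -1.30 in wild type and -1.60 and -1.73 in Cyp3a-/- liver, at -0.86 ± 0.34 (SE, adjusted p = 0.499), with wild type 1 apart from the rest. Ces2g stood at 0.38 ± 0.18 and Ces2b at -0.21 ± 0.22. Ces1a, Ces2f, Ces2h and Ces5a did not pass the filter, and of their probes only Ces1a and 1 of 2 Ces5a probes were well above background on any array, wild type 2. Ces1h and Ces6 were not analysed here.

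On chromosome 8 the Ces2 genes stand in the order Ces2a, Ces2b, Ces2c, Ces2e, so that Ces2a (log2 fold change 1.76) and Ces2c (1.39 for its brightest probe) each neighbour Ces2b (-0.21). No other protein-coding gene lies inside either row in the RefSeq table of GRCm38.p6. Of the 20 protein-coding genes nearest to the rows, 5 on each side, 13 were tested and 0 were called by limma (3 at an unadjusted p under 0.05), with log2 fold changes from -0.57 to 0.72. These neighbours were chosen after the values of the carboxylesterases were seen.

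Genes that work beside the carboxylesterases were counted from lists. Of 27 other ester and lipid hydrolases that passed the filter, 0 were called (1 at an unadjusted p under 0.05), with a median of 0.02. The 3 with the smallest p were Abhd6, a monoacylglycerol lipase, at -0.97 ± 0.30 (SE), Cmbl, which activates an ester prodrug in humans, at 0.50 ± 0.22, and Nceh1, a cholesteryl ester hydrolase, at -0.51 ± 0.24. Aadac, the arylacetamide deacetylase that overlaps carboxylesterases in drug hydrolysis, stood at 0.07 ± 0.19 and is named here after its values were seen. Among 14 genes of VLDL assembly 0 were called (3 at an unadjusted p under 0.05, median 0.11): Tm6sf2, a VLDL lipidation factor, stood at 0.58 ± 0.18, Sar1b, a coat protein of secretory vesicles, at 0.67 ± 0.23, and Plin2, which coats lipid droplets, at -0.75 ± 0.29. Among the arrays wild type 2 was the highest for Plin2, at 6.88 beside 6.10, 5.68 and 5.80.

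Of 5 measured genes for retention in the endoplasmic reticulum or for binding egasyn, 0 were called (0 at an unadjusted p under 0.05, median 0.14). Gusb, the beta-glucuronidase that egasyn binds, stood at 0.37 ± 0.19 (SE), the chaperone gene Hspa5 at 0.21 ± 0.19 and Calr at 0.14 ± 0.21. None of 11 transcription factors known to act on carboxylesterase or drug-metabolism genes was called (0 of 11, 3 at an unadjusted p under 0.05, median -0.09). Those 3 were Cebpb at 0.71 ± 0.20, Ppara at -0.59 ± 0.18 and Nr1i3, which encodes CAR, at -0.59 ± 0.20. Nr1i2, which encodes PXR and is named after its values were seen, stood at 0.14 ± 0.30.

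Among targets of CAR and PXR other than Ces and Cyp3a genes, of 29 measured, 5 rose and 0 fell, with a median of 0.72, beside 1 of 10 and 0.33 for the carboxylesterases and 0.178% higher over all features. At an unadjusted p under 0.05, 21 of the 29 differed (10% of all features), and in 24 both Cyp3a-/- livers lay above both wild type livers (22.5%). The 5 were Cyp2b10, Cyp2c55 and Cyp2b9, oxidases of drugs and steroids, Slco1a4, an uptake carrier of organic anions, and Akr1b7, an aldo-keto reductase. Only 1 of the 2 wild type arrays read Cyp2b9 well above background. Their rises, from 3.15 for Slco1a4 to 5.39 for Cyp2c55, are log2 fold changes above the 1.76 of Ces2a. The count was 0 without either wild type array, 8 without Cyp3a-/- 2, 1 without a filter on dim probes and 3 with normexp or with the filter on all 4 arrays. It was 13 with median scaling, where limma's prior degrees of freedom became infinite. This list was drawn up with earlier results of these data known.

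**Figure D4:**
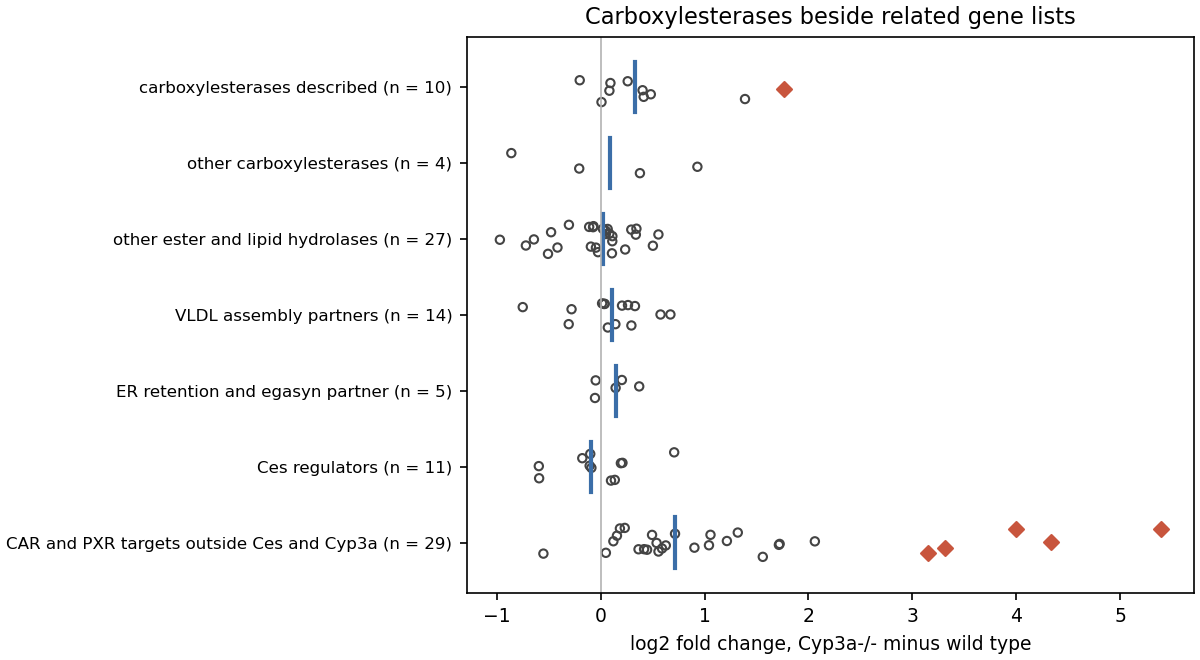
Log2 fold change (Cyp3a-/- minus wild type, horizontal axis) of the 10 carboxylesterases and of each related list, 1 point per gene that passed the filter, with diamonds for genes called at an adjusted p below 0.05 and a vertical bar at each median. Medians run from -0.09 for the regulators to 0.72 for the CAR and PXR targets, and Ces2a at 1.76 is the only carboxylesterase called.

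The genes most like the 3 with the smallest p among the 10 carboxylesterases described were found among 13093 genes with a symbol, by Euclidean distance over the 4 arrays after centring each gene on its mean. Nearest to Ces2a were Robo1 (distance 0.09), Dtd2 (0.10) and 9130409I23Rik (0.22). Nearest to the brightest Ces2c probe were Anp32a (0.15), Acot11 (0.16) and Fam47e (0.16), and nearest to Ces1g were Ttc21b (0.07), Dmgdh (0.08) and Gngt1 (0.08). Distances over 4 arrays describe these livers and carry no test.

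**Figure D5:**
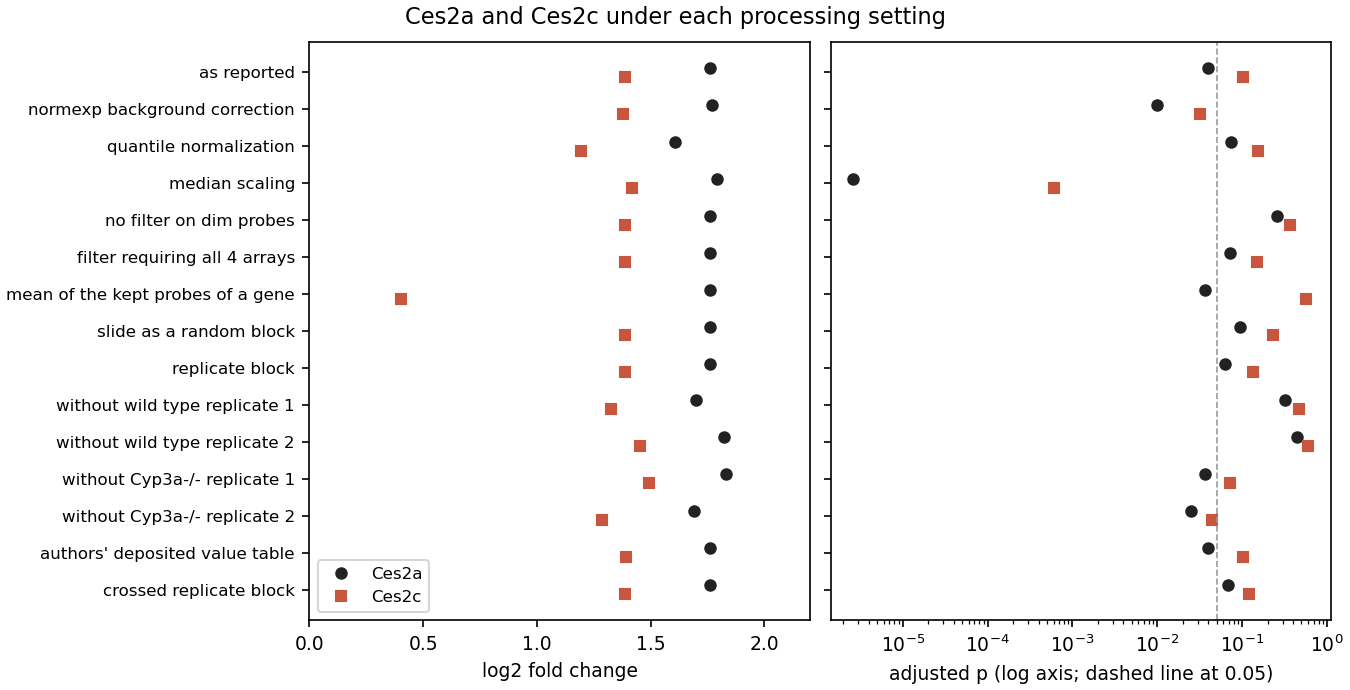
Log2 fold change (left, linear axis) and limma adjusted p (right, log axis, dashed line at 0.05) of Ces2a (circles) and of Ces2c (squares) as reported and under each of 14 other settings. Ces2a stays between 1.61 and 1.83 while its adjusted p lies on either side of the line, and Ces2c drops to 0.40 where its 3 probes are averaged. The filters and blocks could move only the adjusted p.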

How the data were processed

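The authors deposited 1 scanner file per liver. Its intensity values come from Agilent Feature Extraction 11.5.1.1, a version named in the submitters' processing notes. Per the file headers the processed intensity has had background subtracted and a spatial trend removed, with no scaling between arrays. Other deposited columns hold the median intensity of spot and local background and 0 or 1 flags for detection, saturation and outlier spots. A series table of log2 values was deposited as well. Its scale and centring are not given in the sources used here. Set against the scanner files, it matched log2 intensity minus the 75th percentile after the median of every probe had been taken off (r = 1.00 after rounding), which also gave its direction. Its column medians were 0.06, -0.07, -0.02 and 0.02. The number of per-sample columns left out of the column map was 0.

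Control spots and outlier spots were dropped, log2 processed intensity was set relative to the 75th percentile of the 39429 non-control probes, and spots of a probe were averaged. The filter kept 21508 probes that were well above background in both livers of 1 genotype or of both. Accessions were matched to a RefSeq table of GRCm38.p6. It named 28025 probes and left 11404 unnamed. The array's design build is mm9, so from that table gene names and neighbours were used, while the promoter coordinates are those of GRCm38.p6 itself. The brightest kept probe stood for a gene, giving 17406 features across all genes.

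The test was limma's moderated one (version 3.58.1, R 4.3.3, 2-sided) on genotype alone over all features. The adjusted p is Benjamini-Hochberg's, with 2 residual and 3.54 prior degrees of freedom, and probes were fitted likewise. The code was tested on simulated data. The number of arrays limits the precision. The series text gives 2 experiments with different animals, and no label ties a replicate number to an experiment. The genes named are every carboxylesterase listed and, of each other list, those past the threshold plus the 3 with the smallest p. The carboxylesterases and the lists were chosen with earlier results of these data known.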

Additional observations from a re-analysis of the deposited data

How the results depend on the processing

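The log2 fold change of Ces2a stayed between 1.61 and 1.83 over the 14 other settings, while its call was lost in 8 of them. The filters, the blocks and the averaging of probes could not move this fold change. In fits without 1 array the lone array of a genotype is assumed to vary like the other genotype. Of the 10 genes 1 was called higher, a count that became 2 with normexp, 0 with quantile normalization, 2 with median scaling, 0 without a filter on dim probes, 0 with a filter requiring all 4 arrays, 0 with slide as a random block, and 0 to 2 when 1 array was left out. The count over carboxylesterase probes was also 1 and took the same values in these settings. Over all features 31 were called higher and 17 lower. These became 388 and 271 with median scaling, where the prior degrees of freedom were infinite (3.54 as reported) and Ces2a stood at 1.79, 19 higher with normexp, 4 and 9 without a filter, 6 and 3 with the filter on all 4 arrays, and 1 to 410 higher and 6 to 96 lower when 1 array was left out. The CAR and PXR list, with 5 higher, had 3 with normexp, 13 with median scaling, 1 without a filter, 3 with the filter on all 4 arrays and 0 to 8 when 1 array was left out. Other carboxylesterases had 0 to 1 higher when 1 array was left out, the 1 being Ces1b without Cyp3a-/- 2. The cause of these shifts was not tested.

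The replicate numbers were not taken to pair the livers. Deviations of same-numbered arrays from their genotype means correlated at -0.10 over 17406 features, but 2 pairs cannot decide whether livers were paired. With the replicate block 0 of the 10 genes were called, Ces2a had an adjusted p of 0.062, and 35 features were higher and 23 lower. In the fit over probes, 1 carboxylesterase probe was still called higher with this block. With the pairing crossed, chosen after seeing the data, 0 of the 10 genes were called, with 34 features higher and 22 lower. Limma's duplicateCorrelation, planned for slide, could not be fitted, since it gave an estimate for 0 features. The slide correlation of 0.34 was taken instead, after seeing the data, from the ratio of wild type to Cyp3a-/- gaps.

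Genes near 0 changed sign. With quantile normalization Ces1f was -0.17, Ces2e -0.052 and Ces3a -0.013, and with the probes of a gene averaged Ces2e was -0.069. When 1 array was left out Ces1f ran from -0.11 to 0.12, Ces3a from -0.023 to 0.19, Ces2b from -0.42 to 0.014, and the Ces2c probes A_52_P318361 and A_55_P2124712 from -0.28 to 0.14 and from -0.33 to 0.11. Of 246 values over 18 genes and probes, 222 kept their direction and their side of the threshold, 10 changed sign, 10 lost a call and 4 gained one. For these genes and probes the filters and blocks moved no fold change, so there only the call could change.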
